A study of Mus musculus with 4 samples.

Results

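The miR-3473 family and the gene Ncbp3 were examined in chimeric reads of AGO2-CLASH, in which a miRNA and an RNA held by AGO2 are ligated and sequenced as 1 hybrid read. The cells were primary mesangial cells (MMC), the contractile cells of the kidney glomerulus. They came from WT C57BL/6J mice and from miR-379KO mice, which carry a germline CRISPR-Cas9 deletion in Mir379, obtained by crossing founders with WT mice and not limited to a cell type. The labels give no treatment of the cells, which were grown in RPMI medium with foetal bovine serum. The methods mention preparing MMC from males that entered a diabetes experiment at 10 weeks of age, and do not state which mice gave the cells of these libraries. Each genotype had 2 libraries, A and B, and values of all 4 are listed with A before B. For these CLASH libraries the sources used here do not state whether A and B came from separate mice or cultures, so the p-values measure only the spread between these libraries, which may be technical.

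A read was included when its miRNA name started with mmu-miR-3473 or its target gene was Ncbp3. These members were chosen by measured values, since mmu-miR-3473b ranked 3 among the 1643 miRNAs listed and Ncbp3 ranked 5 among the 8440 genes by chimeric reads, and most reads of the one were listed with the other. The rule found 1385 of 36318 chimeric reads (3.81%), of 749 distinct sequences among 29067, each distinct sequence being counted once in each library that held it. The family had 1350 reads, Ncbp3 had 1122, and 1087 reads were listed with both. Among 20396 miRNA and gene pairs, miR-3473b with Ncbp3 ranked 2, with 1074 reads. These ranks and shares chose the members and are given as a description.

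A miRNA guides AGO2 to target RNAs mainly through its seed, the bases near its 5′ end, and a target usually holds the complementary bases in its 3′-UTR. Ncbp3 encodes a cap-binding protein that works with the large subunit of the nuclear cap-binding complex in the processing and export of mRNA. Short sequences that also occur in interspersed repeats can match many places in a genome, so that such a segment of a read may have more than 1 possible source.

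The 6 family members listed in the reads are shown because they decide which reads can be told apart. They are mature sequences from RefSeq (GRCm38.p6), with the seed (bases 2 to 8) in capitals.
mmu-miR-3473b: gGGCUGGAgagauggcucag
mmu-miR-3473e: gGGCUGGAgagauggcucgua
mmu-miR-3473a: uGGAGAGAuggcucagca
mmu-miR-3473c: uCUCUCCAgcccccauaauaag
mmu-miR-3473d: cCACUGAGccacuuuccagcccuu
mmu-miR-3473g: cAAAAGUGaggcuggggaga
miR-3473b and miR-3473e share a seed and differ only near the 3′ end, while miR-3473a, miR-3473c, miR-3473d and miR-3473g have other seeds. RefSeq places miR-3473b at chr10:41670774-41670793 on the plus strand. Its 20 bases had 25146 exact matches on the GRCm38.p6 chromosomes, rank 2 among the 1679 mature miRNAs searched, and the 18 bases of miR-3473a had 9705. The other members had far fewer, with 2 for miR-3473c and 1 each for miR-3473d, miR-3473e and miR-3473g. Of all mature miRNAs searched, 91.9% had 1 exact match and 10 had 100 or more.

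The most frequent read is shown because the rest of the account rests on its parts. It was sequenced 126 times over the 4 libraries and was 71 nt long. Capitals mark the 20 bases aligned to bases 1 to 20 of miR-3473b.
most frequent read: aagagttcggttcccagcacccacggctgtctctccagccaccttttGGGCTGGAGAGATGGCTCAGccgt
Bases 1 to 42 were aligned to Ncbp3, bases 43 to 47 (ctttt) to neither RNA, bases 48 to 67 to miR-3473b, and the last 4 bases (ccgt) to neither. The target thus came before the miRNA. Its deposited score was 177, with a minimum free energy of -30.77 in a unit that the files do not name.

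The Ncbp3 site lies in the 3′-UTR, in exon 13 of 13, of the transcript ENSMUST00000021135.4 (12106 nt). It spans transcript bases 5872 to 5913, which are chr11:73083083-73083124 on the plus strand of GRCm38, 3907 nt after the stop codon, within the gene at 73047783 to 73089317. All 42 bases are soft-masked as a repeat in the genome sequence. The last 22 bases of the site and of the read are shown because they hold the match to miR-3473b, with the bases that pair with positions 2 to 8 of the miRNA in capitals.
Ncbp3 transcript, bases 5892 to 5913: ccatagctgtctcTCCAGCCac
chimeric read, bases 21 to 42: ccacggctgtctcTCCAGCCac
The read equalled the transcript at 39 of 42 bases. Counted from 1 at transcript base 5872, the differences were T15C and T24C and A25G, with the base of Ncbp3 first.

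Chimeric reads of the family were more frequent per 10000 chimeric reads in both WT libraries than in both miR-379KO libraries, but the spread within WT was large. WT A held 853 family reads of 16324 (523 per 10000, 95% Clopper-Pearson interval 489 to 558) and WT B held 205 of 7192 (285, 248 to 326). The miR-379KO libraries held 146 of 6326 (231, 195 to 271) and 146 of 6476 (225, 191 to 265). WT A alone lay above the intervals of the other 3 libraries, and the intervals of WT B and of each miR-379KO library overlapped. The mean was 404 ± 168 per 10000 in WT and 228 ± 3.78 in miR-379KO (SD, n = 2). The difference of 176 per 10000 had a two-sided exact permutation p of 0.33, the smallest that 2 libraries against 2 allow. Without WT A the difference was 56.9 per 10000. Reads carry no molecular identifiers, so intervals cover counting error only.

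miR-3473b made up most of the family. Its reads numbered 801 and 193 in WT and 138 and 130 in miR-379KO. Per 10000 chimeric reads these were 491 and 268 against 218 and 201, so that WT A was highest. On the log2 scale WT exceeded miR-379KO by 0.74 ± 0.71 (SE), with an edgeR adjusted p of 0.993. Without WT A the value was 0.48. Among all 628 miRNAs tested, 0 passed an adjusted p of 0.05 (0% called) by edgeR's quasi-likelihood test, and 27 (4.3%) had an unadjusted p under that value. Neither group included any of the 5 family members tested. By unadjusted p, miR-3473b ranked 158. The median log2 fold change over all miRNAs was 0.09.

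miR-3473e had 207 and 54 reads in WT and 40 and 30 in miR-379KO, the same order of libraries. Its log2 fold change was 0.77 ± 0.73 (SE, edgeR adjusted p = 0.993). Most of these reads were shared with miR-3473b. Of the 1350 family reads, 318 (23.6%) were listed with miR-3473b and miR-3473e and no other member, 5 with these and miR-3473a, 922 (68.3%) with miR-3473b alone and 8 with miR-3473e alone. Where such reads aligned to Ncbp3, the median miRNA alignment of those listed with miR-3473e was 17 nt, a length over which the mature sequences of both are identical.

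The remaining members were sparse. miR-3473a had 30 and 10 reads in WT and 7 and 13 in miR-379KO. Its libraries overlapped between genotypes, with a log2 fold change of -0.04 ± 0.75 (SE). miR-3473c had 14, 4, 1 and 2 reads in the same order (log2 fold change 1.47 ± 1.11), and miR-3473d had 12, 2, 2 and 2 (0.64 ± 1.12). edgeR's adjusted p was 0.993 for each of these 3 members. miR-3473g had 3 reads, of which WT A held 2 and miR-379KO B held 1, under the minimum of 10 for a test. Its 0 reads allow a share of up to 4.17 per 10000 in WT B and up to 4.74 in miR-379KO A, taking 3 reads as the limit. miR-3473f and miR-3473h-5p, which RefSeq also holds, were not listed in these reads.

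**Figure D1:**
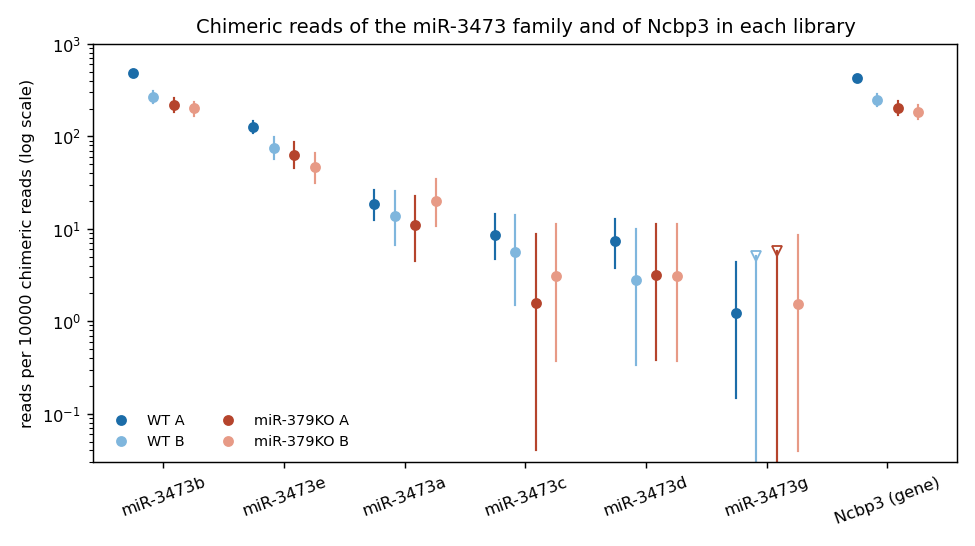
Reads per 10000 chimeric reads on a log scale for each family member and for Ncbp3, with 1 point for each library and bars for 95% Clopper-Pearson intervals (open triangles mark the upper bound where 0 reads were counted). miR-3473b and Ncbp3 have similar levels in every library, highest in WT A, while miR-3473c, miR-3473d and miR-3473g rest on 21, 18 and 3 reads.

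Of the 1122 Ncbp3 reads, 1074 were also reads of miR-3473b, so the values of the gene and of the miRNA are not independent. Chimeric reads of Ncbp3 numbered 695 and 178 in WT and 129 and 120 in miR-379KO, or 426 and 247 against 204 and 185 per 10000. WT A was again highest. The log2 fold change was 0.70 ± 0.41 (SE, edgeR adjusted p = 0.964, unadjusted p = 0.0863). Without WT A it was 0.06, and without WT B it was 0.998 (edgeR adjusted p = 0.189). The fit had 686 genes, of which 0 (0%) passed an adjusted p of 0.05 and 24 (3.5%) had an unadjusted p under it, 12 of them higher in WT, with a median log2 fold change of 0.25.

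Reads listed with both miR-3473b and Ncbp3 numbered 666 and 172 in WT and 126 and 110 in miR-379KO. Their log2 fold change was 0.74 ± 0.59 (SE, edgeR adjusted p = 0.977), and without WT A it was 0.13. Of 632 pairs tested, 0 (0%) passed the adjusted threshold and 16 (2.53%) had an unadjusted p under 0.05, with a median log2 fold change of 0.27. The pair of miR-3473e with Ncbp3 had a log2 fold change of 0.73 ± 0.67, and that of miR-3473a with Ncbp3, with 25 reads, 0.42 ± 1.09.

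**Figure D2:**
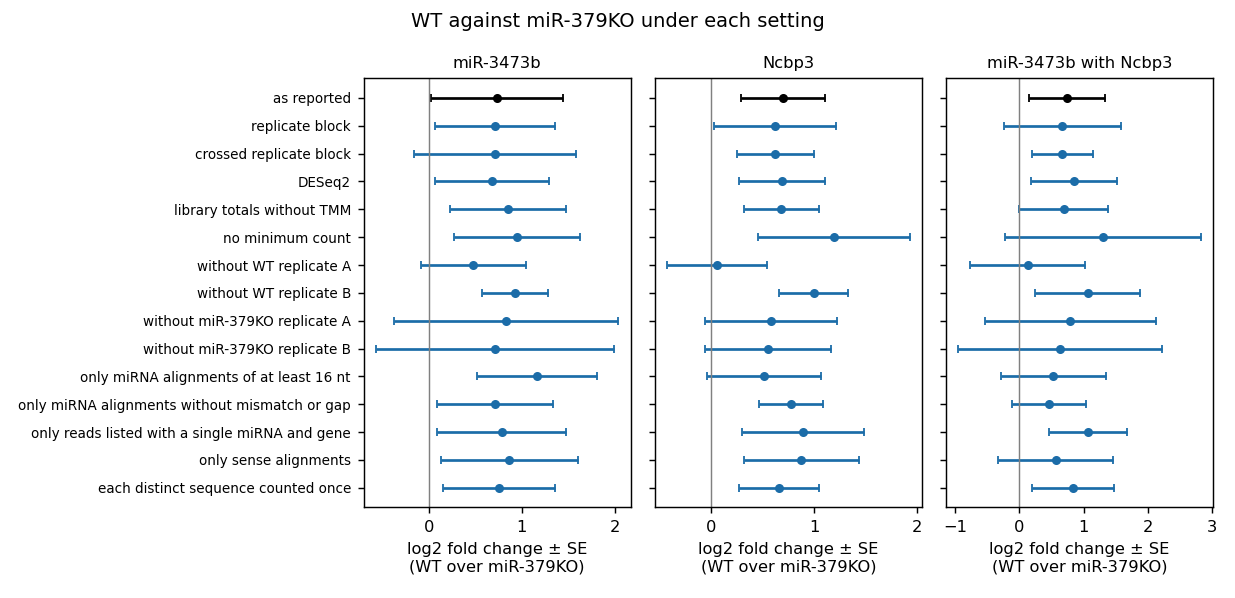
Log2 fold changes (WT over miR-379KO, x axis) with standard errors for miR-3473b, Ncbp3 and their joint reads, as reported (black) and under each other setting (blue, rows). Every value lies above 0, and those without WT A are lowest for miR-3473b and Ncbp3, at 0.48 and 0.06, and for the joint reads at 0.13.

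The share of miR-3473b reads that were listed with Ncbp3 did not separate the genotypes. In WT it was 83.1% (exact 95% interval 80.4 to 85.7) and 89.1% (83.8 to 93.1). The miR-379KO libraries had 91.3% (85.3 to 95.4) and 84.6% (77.2 to 90.3). Each genotype held 1 library near the lower and 1 near the upper end, and the difference of -1.83 percentage points had a two-sided exact permutation p of 0.67. In the other direction, 96.5% and 98.3% of Ncbp3 reads in WT and 97.7% and 95.8% in miR-379KO were listed with the family.

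Nearly all Ncbp3 reads fell on the 1 site described above. Of 1122 Ncbp3 reads, 1118 (99.6%) overlapped transcript bases 5872 to 5913, among them all 1087 family reads. Transcript bases 5874 to 5907 lay in every one of the family reads. The target segment ended at transcript base 5913 in 1072 reads (95.5%), of 460 distinct sequences. It began at base 5872 in 753 reads (67.1%) and at base 5870 in 176 (15.7%). Only 4 reads lay elsewhere on the transcript. They were 2 reads with let-7c-5p between bases 5326 and 5372, 1 antisense read with miR-6931-5p and 1 antisense read with miR-6981-5p.

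**Figure D3:**
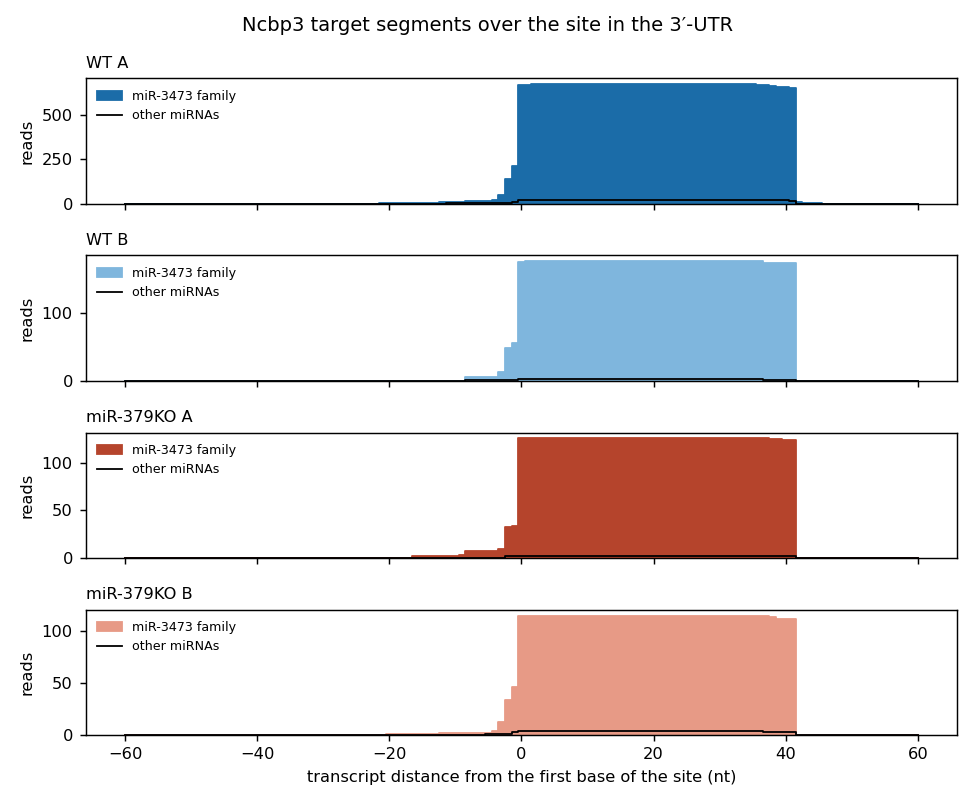
Chimeric reads covering each base of the Ncbp3 transcript (y axis, reads) by distance from the first base of the site (x axis, nt), in 1 panel per library, for family reads (filled) and reads with other miRNAs (line). In all 4 panels the family reads rise at or shortly before the first base of the site and fall steeply after its last base, with 7 reads in WT A, and 0 in each other library, going past it.

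None of the target segments listed with Ncbp3 equalled the transcript. The count was 0 of 1122 reads, whereas 1094 (97.5%) had a target segment found exactly in another stretch of the genome, described next. Among family reads with Ncbp3, 1065 of 1087 (98.0%) did so, with 97.8% and 98.3% in WT and 98.4% and 98.3% in miR-379KO.

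The first 47 bases of the most frequent read, which are the target segment and the linker together, matched 4 places on the GRCm38.p6 chromosomes exactly. They are chr6:128839101-128839147 on the plus strand, chr6:128760078-128760124 and chr6:128798862-128798908 on the minus strand, and chr16:33047643-33047689 on the plus strand. GENCODE M21 has no gene at the first 2 places. The third lies in an intron of Gm44511, and the fourth in introns of Gm17106 and Iqcg, which are on the opposite strand. The whole read, with both parts in its order, had 0 exact matches.

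Each of the 4 places lies in the same stretch of 101 bases, which is shown because it holds both parts of the read. Capitals mark the miRNA segment with its tail (bases 1 to 24) and the target segment with its linker (bases 53 to 99).
repeated stretch, chr6:128839049-128839149 (plus strand, GRCm38.p6): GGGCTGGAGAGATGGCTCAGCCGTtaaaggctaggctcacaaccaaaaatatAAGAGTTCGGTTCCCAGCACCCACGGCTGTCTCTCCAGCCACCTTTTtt
The other 3 copies, at chr6:128760076-128760176, chr6:128798860-128798960 and chr16:33047591-33047691, are identical. In this stretch the miRNA part comes first and the target part last, the reverse of their order in the read. The first 24 bases alone are not specific to it, since they matched 317 places in the genome.

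The family reads with Ncbp3 were compared with this stretch part by part. From the first base of the miRNA segment to the end of the read, 903 of 1087 reads (83.1%) equalled the start of the stretch. Its first 20 bases are those of mature miR-3473b, so reads that end within an exact alignment to this miRNA, such as 183 that end at base 17 and 14 at base 20, match it by construction. Before the miRNA segment, 689 reads (63.4%) were found in it exactly. Both held for 665 reads (61.2%), namely 57.7% and 65.1% in WT and 73.8% and 61.7% in miR-379KO. In each library most of these reads were thus made up of 2 pieces exact in the stretch, in exchanged order. Counted by library sequences in place of reads, both held for 25.5% of 474, so that the share rests on the frequent sequences. Whether the reads came from this stretch or from Ncbp3 and miR-3473b was not tested.

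The bases that follow the miRNA segment also differed from those that follow miR-3473b in its own gene. Mir3473b continues with CAGT after base 20, and the repeated stretch continues with CCGT. Among 727 reads with miR-3473b aligned to base 20 and at least 3 further bases, 673 (92.6%) continued as the stretch does and 2 (0.275%) as Mir3473b does. In 563 reads the 4 bases CCGT were the last of the read, and 183 reads ended instead at base 17 of the miRNA.

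Between the 2 segments lay a short linker rich in T. In 1029 of the 1087 reads (94.7%) the target came first and the miRNA was in the sense orientation. Of these, 840 (81.6%) had a linker of 3 to 6 nt, and in 804 (78.1%) it was C followed only by T. A linker of 4 nt was present in 307 reads and one of 5 nt in 303. In WT A, 13.5% of the reads had a linker of 10 nt or more, against 0.606% in WT B and 1.71% and 2.94% in miR-379KO, so that WT A held most of the long linkers. The share with the target first and a sense miRNA was in contrast highest in WT A, at 96.1%, against 94.3% in WT B and 92.9% and 88.7% in miR-379KO.

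**Figure D4:**
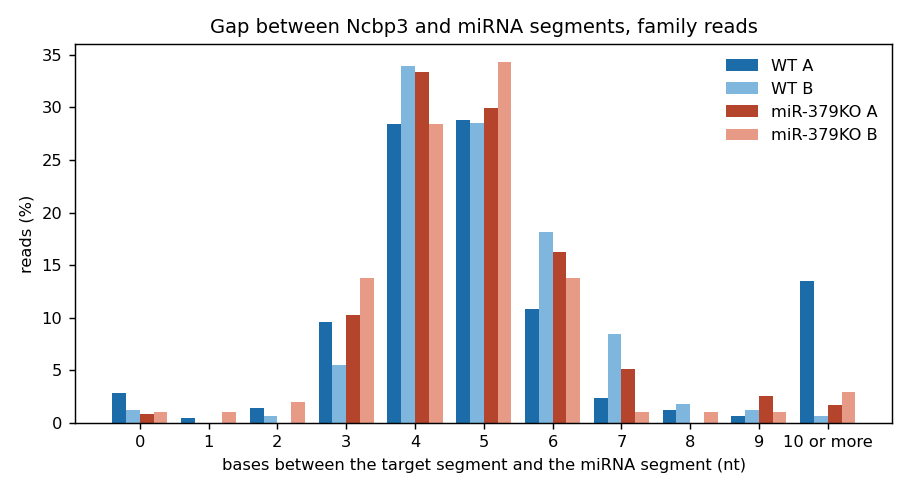
Percentage of the reads of each library (y axis) by the number of bases between the Ncbp3 segment and the miRNA segment (x axis, nt), for family reads with the target first and a sense miRNA. All 4 libraries peak at 4 and 5 nt, and the class of 10 nt or more is filled mainly by WT A, at 13.5%.

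The most frequent sequences differed by their linker or their end. The most frequent read had 82 and 17 reads in WT and 16 and 11 in miR-379KO. The second, with 111 reads (68, 14, 13 and 16 in the same order), had 1 T fewer in the linker, and the third, with 55 (32, 11, 4 and 8), had 1 T more. The fourth, with 51 (23, 11, 12 and 5), had the linker of the second and ended at base 17 of the miRNA.

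Some of the sequences recurred in every library. Over the 4 libraries, the family reads with Ncbp3 had 404 distinct sequences, of which 12 (2.97%) were in all 4 libraries. These 12 held 504 of the 1087 reads (46.4%). Of 27823 other distinct chimeric sequences, 36 (0.129%) were in all 4. Counting a sequence once in each library that held it, 474 sequences had 2.29 reads each on average among family reads with Ncbp3, against 1.23 among chimeric reads of neither member. Without molecular identifiers, repeated capture and repeated amplification of 1 molecule cannot be told apart within a library.

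The miRNA and target segments of these reads were complementary over a long run. A run of at least 10 Watson-Crick base pairs was present in 82.3% of the 474 library sequences of the family with Ncbp3, with a median longest run of 11 bp. In reads of neither member the median was 6 bp and 11.1% reached 10 bp. Family reads with other genes were between, with a median of 7 bp and 19.3%. The share in family reads with Ncbp3 was 82.5% and 88.7% in WT and 80.5% and 75.0% in miR-379KO. These sequences share 1 site and are not independent, so no test was made. The deposited score of 177 and energy of -30.77 were attached to 1033 of the 1087 reads (95.03%). The median deposited energy was -23.58 in reads of neither member.

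**Figure D5:**
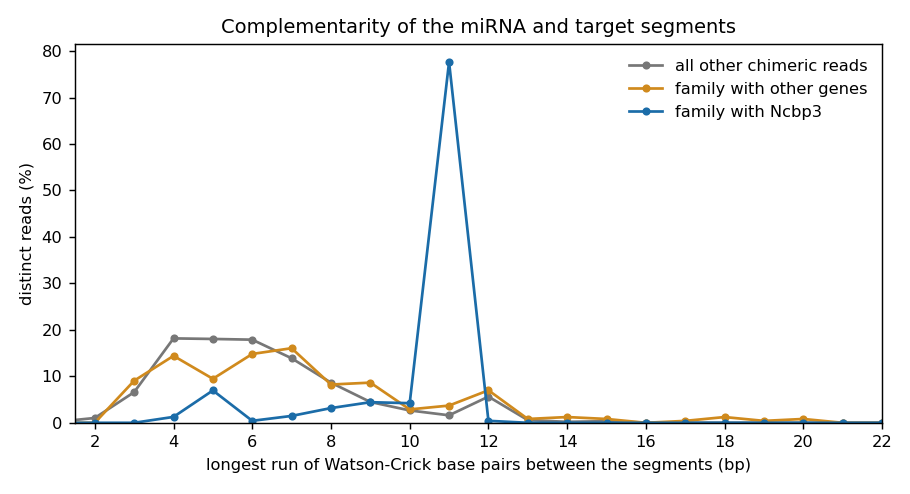
Percentage of distinct reads (y axis) by the longest run of Watson-Crick base pairs between the miRNA and target segments (x axis, bp), for family reads with Ncbp3, family reads with other genes, and all other chimeric reads. Of the reads with Ncbp3, 77.6% lie at their median of 11 bp, with a smaller peak of 6.96% at 5 bp, and the others are spread around medians of 7 and 6 bp. Both of these other sets have a smaller peak at 12 bp, at 7.00% of family reads with other genes and 5.63% of all other reads.

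Seed matches were searched as the exact reverse complement of positions 2 to 7 of the listed miRNA on the strand of the read, within the target segment. For miR-3473b and miR-3473e these letters are CCAGCC, or TCCAGCC with position 8. A match was present in 598 of 630 listings (94.9%) of a family member with Ncbp3, with either length. It was present in 27.1% of the 303 family listings with other genes, and in 22.04% of 29218 listings of other miRNAs with their own seeds. With positions 2 to 8 these shares were 18.2% and 16.5%. With 25 nt of the read added on each side of the target segment, which can take in the miRNA segment and so matches by construction where an antisense segment holds the seed, the shares for positions 2 to 7 were 45.2% and 26.3%, and the share with Ncbp3 was again 94.9%. CCAGCC itself was in 2.69% and TCCAGCC in 0.670% of the target segments of 28350 distinct reads without the family. Since 1 site supplies nearly all the matches with Ncbp3, the share of 94.9% describes that site.

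Bases of the target part of the stretch were also present in reads that were not listed with Ncbp3. They were searched in the whole read, so they could lie in the segment aligned to either RNA. Bases 61 to 90 of the repeated stretch were present in 1297 chimeric reads (3.57% of all), of which 1097 (84.6%) were listed with Ncbp3. Of the 200 others, 136 were listed with miR-3058-3p, all with that miRNA in antisense (99 and 12 in WT, 12 and 13 in miR-379KO), and with 60 different genes, Fn1 in 40 reads. A further 63 were listed with miR-690. Whether the miRNA segments of these reads are themselves part of the stretch was not tested. Reads that ran unbroken over bases 43 to 62 of the stretch, and so joined its middle to its last part, numbered 80 in all and 11 among family reads with Ncbp3.

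Outside the family, 16 miRNAs were listed with Ncbp3, in 35 reads. Of these reads 31 (88.6%) lay on the same site, and 29 (82.9%) had a target segment found exactly in the repeated stretch. miR-3095-3p had 10 reads, all in WT A, and the edgeR adjusted p of this pair was 0.977. miR-1927 had 4, miR-6972-5p and miR-6975-5p had 3 each, and let-7c-5p had 2, tied with other miRNAs and taken by name. 9 of the 16 had a single read.

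The other targets of the family were many and thinly covered. In all, 343 genes were listed, Ncbp3 included, and 272 of them had a single read. Without Ncbp3, 263 family reads of 243 library sequences remained, and a read was often listed with several genes. These reads were unlike those with Ncbp3. The miRNA segment was antisense in 42.97% of them against 3.59% with Ncbp3, was aligned without mismatch or gap in 58.2% against 95.5%, and followed the target in 34.2% against 95.4%. Among all chimeric reads of neither member these values were 29.9%, 54.3% and 48.3%. The miRNA alignment had at least 16 nt in 63.1% of family reads with other genes, 96.2% with Ncbp3 and 30.6% of reads of neither.

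Rn18s-rs5, an 18S ribosomal RNA gene, was the most frequent of the other targets with 46 reads, 27 and 9 in WT and 6 and 4 in miR-379KO. All 46 were antisense to the listed transcript and covered its bases 1390 to 1397. The miRNA was antisense in 35 of them, and 22 matched it without mismatch or gap. Their 41 distinct sequences were each in 1 library, as were 91.3% of those with Ncbp3 and 97.9% of all chimeric sequences other than family reads with Ncbp3. The pair of miR-3473b with Rn18s-rs5 had a log2 fold change of 0.78 ± 0.87 (SE, edgeR adjusted p = 0.977). That of miR-3473e with Rn18s-rs5 had the other sign, at -0.41 ± 1.60, with 7 and 1 reads in WT and 5 and 0 in miR-379KO.

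Fn1, which encodes the matrix protein fibronectin, had 10 family reads, all in WT A. WT A also held 853 of the 1350 family reads. Fn1 reads with any miRNA numbered 280 in WT A, 71 in WT B, and 62 and 70 in miR-379KO. The 10 family reads were spread over transcript bases 526 to 7406 and over members. They were 4 reads of miR-3473c, 3 of miR-3473d, 3 of miR-3473b and 2 also listed with miR-3473e. A430046D13Rik and Afap1, whose product binds actin filaments, had 6 reads each, 4 in WT A and 2 in WT B. Mrpl42, which encodes a protein of the mitochondrial ribosome, had 5 reads (2, 2, 0 and 1), and Atp13a2, a lysosomal ATPase, and Mthfd2l, a mitochondrial folate enzyme, had 5 each (3, 2, 0 and 0). 2810474O19Rik, Arl5c and C030017G13Rik had 4 each, tied with other genes and taken by name. With 4 to 6 reads in all, a difference between genotypes was not detectable for these genes at this depth.

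By the shape of their shares over the 4 libraries, the miRNAs nearest to miR-3473b among 56 others with at least 100 reads were miR-6975-3p, miR-1195 and miR-709. The measure was the Euclidean distance between log2 shares centred on their mean, over 4 libraries, and it was 0.206, 0.304 and 0.331, against a median of 1.55. miR-6975-3p had 123 and 30 reads in WT and 25 and 22 in miR-379KO. For Ncbp3 the nearest of 20 genes were Fn1, the nuclear noncoding RNA Neat1 and the nuclear noncoding RNA Malat1, at 0.448, 0.520 and 0.533 against a median of 1.32. Each of these also had its highest share in WT A.

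Other genes of nuclear cap binding and mRNA export were counted as targets from a list of 22. Of these, 6 had any chimeric read, 7 reads in all, and 0 reached the minimum of 10 for a test, which 686 of the 8440 genes with reads did. Zc3h18, an adaptor of the cap-binding complex, had 2, and Srrt, Thoc2, Eif4e, Kpna2 and Kpnb1 had 1 each. Ncbp1 and Ncbp2, the subunits of that complex, had 0.

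As a check of the labelled cell type, chimeric reads were counted for marker genes, which reflects capture as targets and not expression alone. Of 9 mesangial genes, 5 were seen with 114 reads, 86 of them on Acta2, the smooth muscle actin of contractile cells (28 and 20 in WT, 21 and 17 in miR-379KO), while Itga8, Gata3, Ren1 and Thy1 were at 0. The list summed to 37 and 29 reads in WT and 29 and 19 in miR-379KO. These counts are not scaled to the library totals of 16324, 7192, 6326 and 6476 chimeric reads, and do not compare the genotypes. The podocyte list had 5 reads over 3 of 5 genes, and the endothelial, tubular and leukocyte lists, of 4 genes each, had 0.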

How the data were processed

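AGO2-CLASH reads of MMC were analysed in 2 WT and 2 miR-379KO libraries, grouped by the sample labels. The authors merged read pairs and discarded those that aligned to the genome or transcripts, then searched the rest for mature miRNAs and mRNAs. The submitters' processing notes name Bowtie2 2.1.0 and GRCm38.p5. The deposited counts are numbers of reads of exactly that sequence, without normalization. The deposited score, minimum free energy and positions (coordinates on miRNA, transcript and read) were used as given. Removal of reads that align in full leaves reads whose parts lie apart or in another order.

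Each distinct read was counted once per library, with its deposited count, for each miRNA, gene or pair listed. The library totals were 16324, 7192, 6326 and 6476 chimeric reads, which are not the sequencing depth, and 3 reads were the limit of detection. The members and gene lists were chosen with earlier results of these data known. Named were all family members, the 10 other genes with most family reads, the 5 other miRNAs with most Ncbp3 reads, the 3 nearest patterns (0.5 reads added before log2), and fixed lists.

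The test of counts was edgeR's quasi-likelihood test (version 4.0.16, R 4.3.3) after TMM scaling, with genotype alone in the model and Benjamini-Hochberg adjustment over every feature of at least 10 reads. Shares were compared by the exact permutation test. On simulated counts (dispersion 0.05, log2 fold change 3) the test called 140 of 193 changed miRNAs, 145 of 189 genes and 150 of 188 pairs, with 1, 0 and 4 unchanged ones. The common dispersion of the data was higher, at 0.221, 0.215 and 0.453. Sequences were searched exactly on both strands of the GRCm38.p6 chromosomes, and genes are from GENCODE M21. Python 3.11.15, pandas 2.3.3, scipy 1.17.1 and matplotlib 3.10.9 were used. Alternatives were DESeq2 1.42.0, a replicate block, no TMM, no minimum count, each library left out, distinct sequences counted once, restrictions on alignment length, mismatches, orientation and multiple listings, and other seed windows. A crossed block was added after the data were seen.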

Additional observations from a re-analysis of the deposited data

How the results depend on the processing

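The log2 fold changes (WT over miR-379KO) kept their direction and stayed over the adjusted threshold of 0.05 under all 14 alternatives each, with a range of 0.48 to 1.17 for miR-3473b, 0.06 to 1.19 for Ncbp3 and 0.13 to 1.30 for their joint reads. edgeR's or DESeq2's adjusted p ranged from 0.610 to 0.9996, from 0.189 to 0.996 and from 0.665 to 0.999. With 1 library left out they ranged from 0.48 to 0.926, from 0.06 to 0.998 and from 0.13 to 1.06, where a lone library was assumed to vary like the other genotype. The lowest values were those without WT A. Unadjusted p-values under 0.05 numbered 4 to 40 over the alternatives for miRNAs (27 as reported), 6 to 51 for genes (24) and 3 to 78 for pairs (16), with 11, 8 and 11 by DESeq2. Without WT B, 4 genes and 6 pairs passed the adjusted threshold, none of them Ncbp3 or its pair with miR-3473b, and under every other alternative 0 passed. The family share kept its direction under 9 of 9 alternatives, with a difference of 56.9 to 294 per 10000 when 1 library was left out and 539 with miRNA alignments of at least 16 nt. The difference in the Ncbp3 share of miR-3473b reads turned from -1.83 to 0.896 percentage points with sense alignments only, to 1.16 without WT A and to 1.52 without miR-379KO A, and it ranged from -5.17 to 1.52 with 1 library left out. The cause was not tested. The seed match share of all family listings was 72.9%, 70.0% with positions 2 to 8, and 78.8% with 25 nt of the read added on each side, which adds sequence to search and can include an antisense miRNA segment.

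The letters A and B are not stated to pair libraries. The deviations of same-letter libraries correlated at -0.07 over miRNAs, -0.06 over genes and -0.16 over pairs (Pearson, across features, which are not replicates). With the letters as a replicate block the log2 fold changes were 0.71, 0.62 and 0.67 (edgeR adjusted p of 0.998, 0.983 and 0.997), and the unadjusted p was under 0.05 for 14 genes and 6 pairs. With the crossed block, 0 features passed the adjusted threshold in any of the 3 fits. Depth limits members under about 3 reads per library, as miR-3473d and miR-3473g were in most libraries and miR-3473c in both miR-379KO libraries.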
